A study of Canis lupus familiaris with 6 samples.

Results

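The heat shock proteins and their DNAJ co-chaperones were followed in transformed kidney epithelial cells that grew alone or among less transformed neighbours. The genes were taken by name from the array annotation: the HSPA, HSPB, HSPD, HSPE, HSPH and HSP90 families, the numbered members of DNAJA, DNAJB and DNAJC, and HSF1, HSF2, BAG3, HYOU1, CALR, CANX, PDIA4 and PDIA6. They came to 64 genes read by 120 probes, out of 14228 gene names and 43603 probes on the array. The probe descriptions named heat shock or DnaJ proteins for 147 probes, of which 53 were not members. The rule used gene names, and the group was picked with earlier results of these data known.

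The cells were MDCK, a canine kidney epithelial line. The β-cat ΔN/RasV12 cells carried a stable mCherry-tagged β-catenin that lacks its amino-terminal part and a GFP-tagged RasV12 switched on by tetracycline, so both culture groups held the same transgenes and the same drug. In single culture they grew alone (n = 3 arrays), and in mix culture they were plated with 10 times as many cells that carried only the truncated β-catenin, the β-cat ΔN cells (n = 3 arrays). All dishes were collagen-coated and received tetracycline for 24 h, after which GFP-positive cells were detached, sorted by flow cytometry and profiled on 1-colour Agilent canine arrays, to ask which transcripts differ when transformed cells meet such neighbours. RasV12 was under a tetracycline switch in a single cell line, and the sorted RNA is a bulk measure in which fewer cells that express a gene and less RNA per cell cannot be told apart.

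Heat shock proteins are chaperones: HSP70 proteins bind exposed stretches of unfolded protein in cycles of ATP hydrolysis, J-domain proteins of the DNAJ families hand them clients and start the hydrolysis, and HSP110 proteins recharge them with nucleotide. Small heat shock proteins hold unfolded chains without ATP, HSP90 finishes signalling proteins such as kinases, and separate sets work in the endoplasmic reticulum and in mitochondria. HSF1 is the transcription factor that raises the cytosolic set upon protein damage, whereas the endoplasmic reticulum set answers to the unfolded protein response.

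Each value below is a normalised log2 signal, that is log2 of the background-subtracted intensity minus the 75th percentile of the same array, so that 0 is the brightness of that percentile. A change is the mix culture mean minus the single culture mean on this scale, and levels were compared only within a probe. For testing, all 3 arrays of single culture or all 3 of mix culture had to show the probe well above background, which held for 26623 of all probes and 108 of the 120 chaperone probes. The call was an adjusted p below 0.05 by limma with Benjamini-Hochberg adjustment over all probes tested. Each array held 43803 spots, of which 61.1% to 65.7% were well above background, and replicate 1 of both cultures lay on a slide of its own (slide 1) while the other 4 arrays shared slide 2. Of the kidney epithelial markers on the array, 9 of 9 were above background on all 6 arrays. PTPRC and LYZ of the leukocyte list and COL3A1, DCN and PDGFRA of the fibroblast list were above background on no array.

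No chaperone gene passed the test between the cultures when the slide was left out of the model. None of the 108 probes was called by limma, against 0.883% of all probes tested. The methods' t-test after adjustment called 0 of them, but it called only 8 of all 26623 probes tested. At an unadjusted p below 0.05, limma picked 14 of the 108 (13.0%, against 8.71% of all probes), all higher in mix culture. They were 5 probes of HSPB8, 3 of DNAJB4, 3 of HSPA4L, 2 of HSPA13 and 1 of HSPH1, so several read the same gene. The share of all probes by direction was not taken at this threshold. The methods' t-test at the same unadjusted threshold picked 9 (8.33%, against 9.73% of all probes). Taking the brightest tested probe of each gene, 26 genes lay above 0 and 29 below, with a median change of -0.01 and a median size of 0.16. All probes tested had a median change of -0.05. Of the 55 genes tested, 52 changed by less than 0.5, and the 95% interval of 47 lay within 1 on either side of 0.

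With the slide as a term in the limma model (the slide-adjusted fit), 8 chaperone probes were called, all higher in mix culture. This was 7.41% of the 108, beside 7.20% of all probes tested. In the upward direction the 8 probes stood beside 3.98% of all probes, and in the downward direction the members had 0 beside 3.22%. The 8 calls fell on 4 genes: 4 of the 6 probes of HSPB8, 2 of 3 of DNAJB4, 1 of 3 of HSPA4L and 1 of 2 of HSPA13. With the replicate number as a block instead, the calls were 5, which were 4 probes of HSPB8 and 1 of DNAJB4, beside 5.25% of all probes. The arrays of the groups did not overlap for 21 of the 108 probes (19.4%, against 16.5% of all probes). Mix culture was higher for 15 (13.9%, against 7.85%) and lower for 6 (5.56%, against 8.66%). The 15 held 5 probes of HSPB8, 3 of DNAJB4, 3 of HSPA4L and 2 of HSPA13, so several read the same gene. By the brightest tested probe of each of the 55 genes, mix culture was higher without overlap for 5 and lower for 4.

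**Figure D1:**
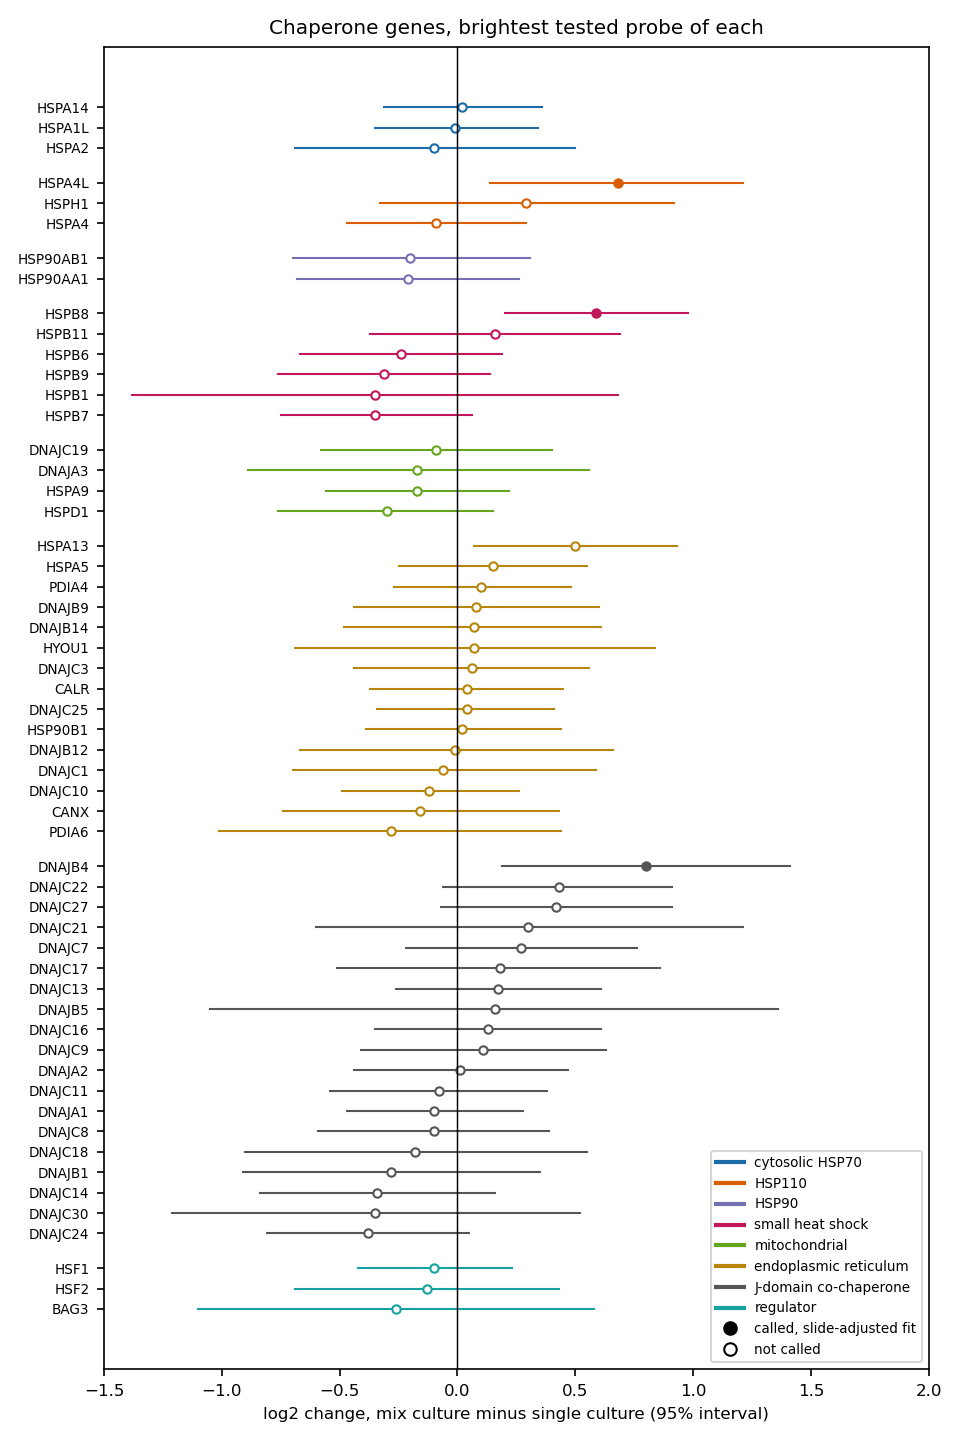
Log2 change in mix culture minus single culture for the 55 chaperone genes tested, with the brightest tested probe of each gene as a point and its 95% limma interval as a line (3 arrays a group), coloured by role. Filled points were called in the slide-adjusted fit (HSPA4L, HSPB8 and DNAJB4), and most intervals cross 0.

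Among the small heat shock proteins, HSPB8 was the one with probes called in the slide-adjusted fit. HSPB8 works with BAG3 to hand misfolded proteins to autophagy. Its brightest probe read 4.01, 3.74 and 3.69 on the single culture arrays and 4.53, 4.43 and 4.26 on the mix culture arrays. Every mix culture array lay above every single culture array. The change was 0.59 ± 0.17 (SE; 95% interval 0.20 to 0.98), a 1.51-fold difference, with a limma adjusted p of 0.277 without and 0.0161 with the slide in the model.

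The array names 6 probes for HSPB8, 5 on the plus strand and 1 on the minus strand, and their changes ran from 0.32 to 0.68. Which RNA the minus-strand probe reads was not tested. The groups did not overlap for 5 of them. The exception, a probe at chr26:15337809-15337868, read -1.46, -1.19 and -1.24 in single culture and -1.37, -0.74 and -0.83 in mix culture. The changes within slide 1 and within slide 2 were 0.51 and 0.63 for the brightest probe. All 6 probes had the larger change on slide 2, with 0.09 to 0.51 on slide 1 and 0.43 to 0.78 on slide 2.

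The sequences of the HSPB8 probes show that they do not all cover separate stretches of the genome. Probe A_11_P054956 lies at chr26:15350286-15350345 of CanFam3.1 on the plus strand, as the HSPB8 transcript does by the other 4 plus-strand probes, and probe A_11_P000002695 covers the same 60 bases on the minus strand. Below, the first 30 bases of the former stand beside the last 30 bases of the latter, both 5′ to 3′. They are shown because the whole of each is the reverse complement of the other, which the capitals mark.
A_11_P054956, bases 1 to 30: ATTTCACACTGTATCTTCCTTTTGCAGCAA
A_11_P000002695, bases 31 to 60: TTGCTGCAAAAGGAAGATACAGTGTGAAAT

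Both strands gave signal above background on all 6 arrays. The plus-strand probe read 0.38, 0.62 and 0.58 in single culture and 0.83, 1.43 and 1.18 in mix culture. The minus-strand probe read -0.82, -0.74 and -0.66 against -0.47, -0.06 and -0.39. The changes were 0.62 ± 0.20 and 0.43 ± 0.17 (SE). The limma adjusted p was 0.359 and 0.521 without the slide, and 0.0200 and 0.0731 with it. On the strand opposite to HSPB8 the mix culture arrays thus also lay above the single culture arrays, but the probe was not called. HSPB8 was the only one of the 64 genes with probes on both strands.

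No other small heat shock protein among the members was called. HSPB1, also called HSP27, read 5.21, 7.02 and 6.20 in single culture and 5.72, 5.51 and 6.14 in mix culture. Its single culture arrays were spread wider than the difference between the groups. Its change was -0.35 with a 95% interval of -1.38 to 0.68, and it took opposite signs on the slides (0.51 on slide 1, -0.78 on slide 2). HSPB6 (-0.24), HSPB7 (-0.35) and HSPB9 (-0.31) had negative changes that passed no test, and HSPB11, a component of the intraflagellar transport machinery of cilia, had 0.16. HSPB7 and HSPB9 did not overlap between groups: HSPB7 read -2.36, -2.79 and -2.62 against -2.89, -3.05 and -2.87.

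CRYAB, αB-crystallin, is a small heat shock protein that the array lists under its crystallin name, so it was no member by the naming rule and stood in a list of other folding factors. It read 3.54, 3.25 and 3.19 in single culture and 4.10, 4.37 and 4.52 in mix culture, with no overlap. The change was 1.00 ± 0.18 (SE), a larger value than that of any chaperone probe tested, with a limma adjusted p of 0.0745 without and 0.0076 with the slide. Its second probe gave 0.98.

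Of the J-domain co-chaperones, DNAJB4 had the largest change. DNAJB4 is a cytosolic partner of HSP70. Its brightest probe read -2.17, -2.13 and -2.30 in single culture and -0.82, -1.64 and -1.73 in mix culture, and the mix culture array of slide 1 was well above the other 2. The change was 0.80 ± 0.26 (SE), a 1.74-fold difference, with a limma adjusted p of 0.386 without and 0.0321 with the slide.

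The 3 probes of DNAJB4 gave changes of 0.78 to 0.86, none with overlap between groups. The brightest lies at chr6:68879701-68879760 on the minus strand. Its first 30 bases are given to identify the stretch that was read.
DNAJB4 A_11_P098281, bases 1 to 30: ggcactgaaaatataaaaggactggcagtt
On slide 1 this probe differed by 1.34 and on slide 2 by 0.53. Without mix culture replicate 1 the change was 0.51, so that array carried a large share of the mean.

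The other genes classed as J-domain co-chaperones gave small values in both directions. DNAJC22 (0.43) did not overlap between groups, with -3.70, -3.67 and -4.26 in single culture and -3.29, -3.54 and -3.52 in mix culture. DNAJC24, which serves the synthesis of diphthamide on elongation factor 2, lay the other way: -0.66, -1.04 and -0.90 in single culture and -1.05, -1.46 and -1.24 in mix culture, a change of -0.38 ± 0.18 (SE). None of these passed the test, and the limma adjusted p of DNAJC24 with the slide was 0.0804.

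The J-domain genes DNAJB1, DNAJA1 and DNAJA2 were not called by limma with or without the slide. DNAJB1, the HSF1-dependent HSP40, read 3.68, 2.95 and 2.98 in single culture and 3.27, 2.63 and 2.85 in mix culture, a change of -0.28 with a 95% interval of -0.91 to 0.35. DNAJA1 had -0.10 (-0.47 to 0.28) and DNAJA2 0.01, and the 3 probes of DNAJA2 ran from -0.35 to 0.02. Among the 19 genes of this class that were tested, 11 lay above 0 and 8 below, with a median of 0.11. DNAJB6 was no member by name. The tested probes that only the description ties to it gave 0.10, -0.29, -0.15 and -0.04, added after their values were seen.

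**Figure D2:**
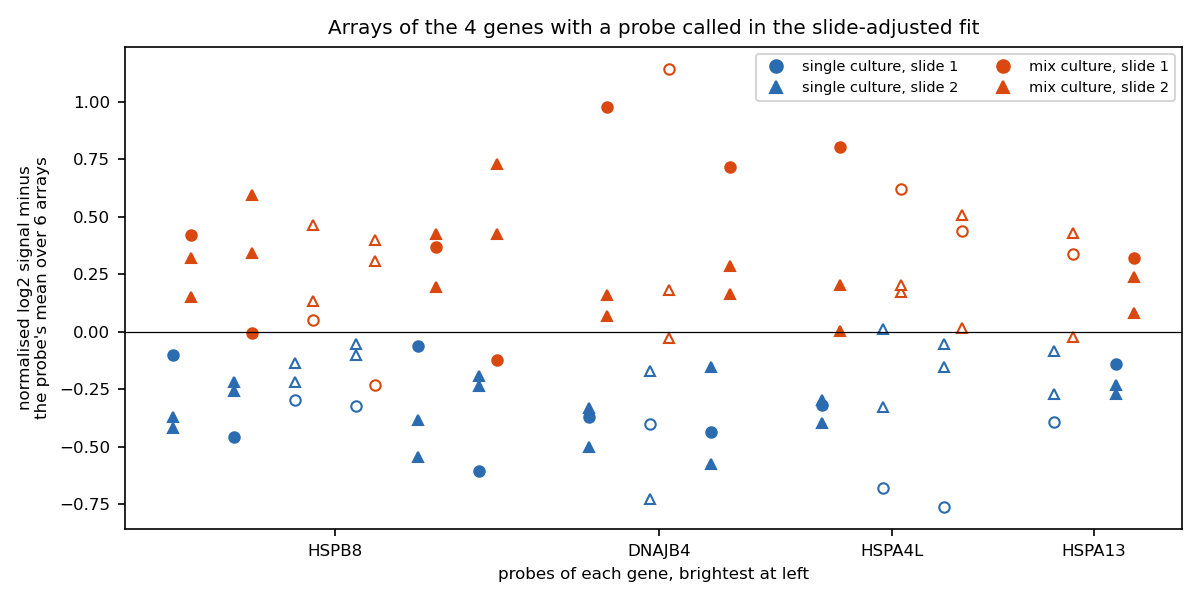
Normalised log2 signal of each array minus the mean of that probe over the 6 arrays, for the 6 HSPB8, 3 DNAJB4, 3 HSPA4L and 2 HSPA13 probes tested, brightest at left. Circles are slide 1 and triangles slide 2, and filled symbols mark probes called in the slide-adjusted fit. Single culture arrays (blue) lie below mix culture arrays (orange) for 13 of the 14 probes, and for DNAJB4 the slide 1 mix culture array stands highest.

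HSPA4L, an HSP110 protein that recharges HSP70, also had concordant probes. Its brightest probe read -1.0, -1.08 and -0.98 in single culture and 0.12, -0.68 and -0.48 in mix culture. The single culture arrays were nearly alike and the slide 1 mix culture array was again the highest. The change was 0.68 ± 0.23 (SE), with a limma adjusted p of 0.42 without and 0.0405 with the slide.

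The 3 HSPA4L probes gave 0.64 to 0.68, a range of 0.04, although they read separate stretches of the gene. They lie between chr19:13105225-13105284 and chr19:13135568-13139666 on the minus strand. The latter probe and the remaining one have their 60 bases spread over 4099 and 3191 bases of the genome, as a probe across an exon junction does, and so read spliced RNA. The first 30 bases of the remaining one, at chr19:13115197-13118387, are given since it and the other junction probe rest on spliced RNA.
HSPA4L A_11_P0000021669, bases 1 to 30: agacagttgggccaagatcttctcaacagc
As for DNAJB4, the change was larger on slide 1 (1.12 for the brightest probe) than on slide 2 (0.45), and without mix culture replicate 1 it was 0.44 over the remaining arrays.

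The other HSP110 genes differed less. HSPH1, the heat-inducible HSP110, gave changes of 0.29, 0.39 and 0.20 on its 3 probes. The middle one did not overlap (1.61, 1.69 and 1.65 against 1.92, 2.2 and 2.0), and its limma adjusted p was 0.512 without and 0.0692 with the slide. HSPA4 had -0.09 (95% interval -0.47 to 0.29) on its brightest probe.

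The cytosolic HSP70 genes named on the array showed no change that passed the test. HSPA14, a ribosome-bound HSP70, had 0.02 (-0.31 to 0.36), HSPA1L, a testis-type HSP70 beside the inducible genes, -0.01 (-0.35 to 0.34), and HSPA2 -0.10 (-0.69 to 0.50). HSPA1A, HSPA1B, HSPA6 and HSPA8 do not occur as gene names in the annotation used here. Outside the naming rule, and added after their values were seen, 4 probes under the name HSP70 gave 0.22 to 0.40, and 2 probes described as HSPA8, the constitutive HSP70, both gave -0.02. The brightest HSP70 probe read 1.97, 2.54 and 2.58 in single culture and 2.55, 2.56 and 2.74 in mix culture, so the single culture array of slide 1 was the low one. On the slides its change was 0.58 and 0.09.

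HSP90 and the regulators of the response were not called. HSP90AA1, the inducible form, read 7.12, 6.74 and 6.96 against 7.02, 6.46 and 6.72, a change of -0.21 (-0.68 to 0.26), and HSP90AB1, the constitutive form, had -0.20 (-0.70 to 0.31). A further 4 probes that only the description ties to HSP90AA1, added after their values were seen, gave 0.04, -0.08, -0.12 and -0.02. HSF1 read 4.34, 4.29 and 4.27 against 4.14, 4.22 and 4.24, which did not overlap, with a change of only -0.10 (-0.42 to 0.23). Its other probe did overlap, with 3.80, 3.70 and 3.56 against 3.48, 3.74 and 3.61, a change of -0.07. HSF2 had -0.13 (-0.69 to 0.43).

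BAG3, the partner of HSPB8 and itself a target of HSF1, did not follow HSPB8. It read 4.27, 3.11 and 3.34 in single culture and 3.83, 3.02 and 3.09 in mix culture on its brightest probe, where both slide 1 arrays were the high ones. Its change was -0.26 (-1.1 to 0.58), and its other probes gave -0.17 and -0.23. None was called, and the lowest limma adjusted p with the slide over the 3 probes was 0.204.

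Of the members classed here under the endoplasmic reticulum, 15 genes were tested, 10 above 0 and 5 below, with a median of 0.04 and a median size of 0.07. HSPA13, a microsomal HSP70 with no substrate-binding domain, stood apart. Its brightest probe read -0.14, 0.17 and -0.02 in single culture and 0.59, 0.23 and 0.68 in mix culture, with the mix culture replicate 2 close to the single culture values. The second probe read -2.94, -3.03 and -3.07 against -2.48, -2.56 and -2.72, with each group within a narrow band and no overlap. The changes were 0.50 ± 0.18 and 0.43 ± 0.15 (SE), with limma adjusted p of 0.482 and 0.442 without the slide. In the slide-adjusted limma fit the second passed (adjusted p = 0.0474) and the first did not (adjusted p = 0.0898).
HSPA13 A_11_P000003984, chr31:11365932-11365991, minus strand, bases 1 to 30: aggagatagttgaggacaatcatgtaacgc
The sequence is that of the probe that passed.

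The classical targets of the unfolded protein response had values near 0. HSPA5 (BiP), the main HSP70 of the compartment, read 5.47, 5.22 and 5.24 in single culture and 5.6, 5.23 and 5.55 in mix culture, a change of 0.15 (-0.25 to 0.55). Its 3 probes gave -0.23 to 0.15. HSP90B1 (GRP94) had 0.02 (-0.39 to 0.44).

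Among the other factors of the compartment, HYOU1, its HSP110, had 0.07 (-0.69 to 0.84). The lectin chaperones CALR and CANX had 0.04 (-0.37 to 0.45) and -0.16 (-0.74 to 0.43). PDIA4 and PDIA6, which form disulphide bonds, had 0.10 (-0.27 to 0.48) and -0.28 (-1.01 to 0.44). The stress-induced J-domain proteins DNAJB9 and DNAJC3 had 0.08 (-0.44 to 0.60) and 0.06 (-0.44 to 0.56). DNAJB11 was no member by name. Of the probes that only the description ties to it, the one tested gave -0.01 (-0.68 to 0.66), added after its value was seen. Apart from that of PDIA6, the intervals given here for the compartment stayed within 1 on either side of 0, that is within a 2-fold difference.

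On the brightest probe of each, the 4 tested genes classed here as mitochondrial had negative values, where 58.0% of all probes tested lay below 0. None was called. HSPD1, the chaperonin HSP60, read 2.96, 2.50 and 2.99 in single culture and 2.54, 2.34 and 2.67 in mix culture, a change of -0.30 (-0.76 to 0.15). HSPA9, the mitochondrial HSP70, had -0.17, DNAJA3 -0.17 and DNAJC19 -0.09. DNAJA3 was read by 5 probes, whose changes ran from -0.40 to 0.09. HSPE1, the co-chaperonin of HSPD1, had a probe by that name that was above background on no array, while 3 probes that only the description ties to it, added after their values were seen, were above background on all 6 and gave -0.12, 0.33 and 0.02.

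Of the 12 probes not tested, 10 were above background on no array. These covered the only probes of DNAJB7, DNAJB8, DNAJC5B, DNAJC5G, DNAJC6, HSPA12A, HSPB3 and HSPE1, and 2 of the 3 of DNAJA4. The other DNAJA4 probe was above background on 1 single culture array and the second DNAJB5 probe on 1 mix culture array. DNAJB8 and DNAJC5G are known from testis, DNAJC6 (auxilin) from neurons and HSPB3 from muscle. Of the tested probes, 106 were above background on all 6 arrays. The others were a second probe of DNAJC16 (1 of 3 single culture and 3 of 3 mix culture arrays) and the probe of DNAJC27 (2 and 3). No member was above background in all arrays of one culture and in none of the other.

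Slide differences of the chaperone probes were on the whole larger than their culture changes. In the model with both terms, 47 of the 108 probes (43.5%) differed between slides, beside 47.2% of all probes tested, 18 higher and 29 lower on slide 2. The median size of the slide difference was 0.35, the same as over all probes, and that of the culture change was 0.16. A size of 0.5 or more was reached by 31 probes for the slide and by 10 for the culture.

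**Figure D3:**
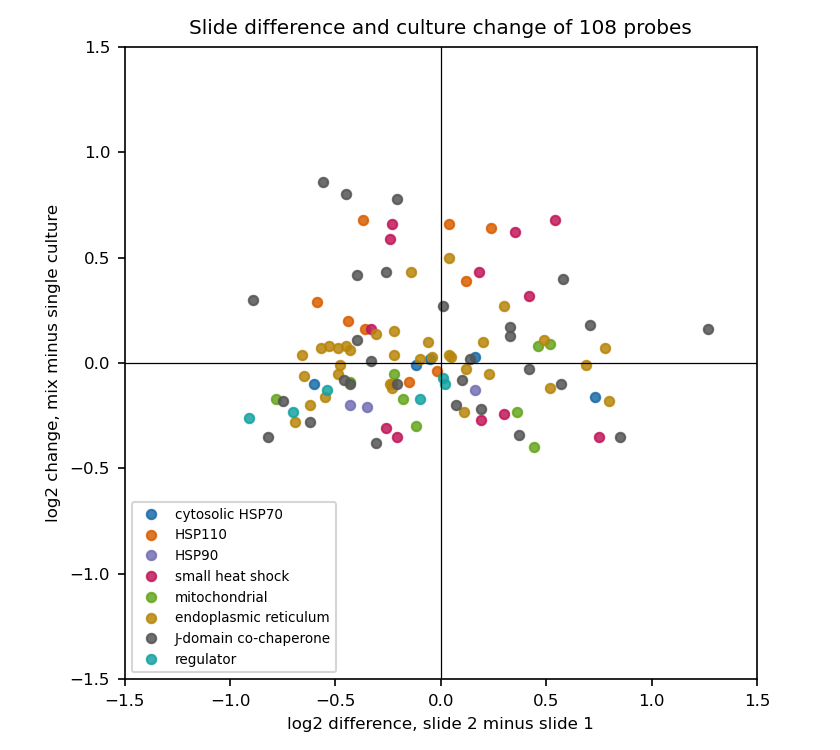
Slide difference (slide 2 minus slide 1, x axis) and culture change (mix minus single culture, y axis) of the 108 tested chaperone probes, both as log2 differences on the same scale. The points spread further along the slide axis (31 at 0.5 or more in size) than along the culture axis (10).

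Probes of the same gene varied in both measures. For the 29 genes with more than 1 tested probe, the range of the culture change over the probes of a gene had a median of 0.16 and a maximum of 0.48, whereas the range of the slide difference had a median of 0.48 and a maximum of 1.33. The slide range was the larger in 24 of the 29 genes, where slide differences were also larger in size. The probes of a gene differed in the sign of the slide difference in 14 genes and in the sign of the culture change in 11. HSPA2 gave the maximum, with slide differences from -0.60 to 0.73 on 3 probes whose culture changes ran from -0.16 to 0.03. BAG3 had slide differences of -0.91 and -0.10 on probes that changed by -0.26 and -0.17 with culture. For 18 of the 29 genes all probes had the same sign of culture change, 8 above and 10 below 0. Some probe pairs overlapped on the same strand, in CALR, DNAJC10, DNAJA3 and HSF1, and are not separate readings.

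Within slides, 39 of the 55 genes had the same sign of change on slide 1 and slide 2. The size was larger on slide 1, with 1 array a group, in 42 genes. The median change was -0.14 on slide 1 and -0.04 on slide 2, beside -0.06 and -0.04 over all probes. With slide 2 alone, limma called 4 of the 108 chaperone probes, all of HSPB8, beside 983 of all 26623 probes tested.

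**Figure D4:**
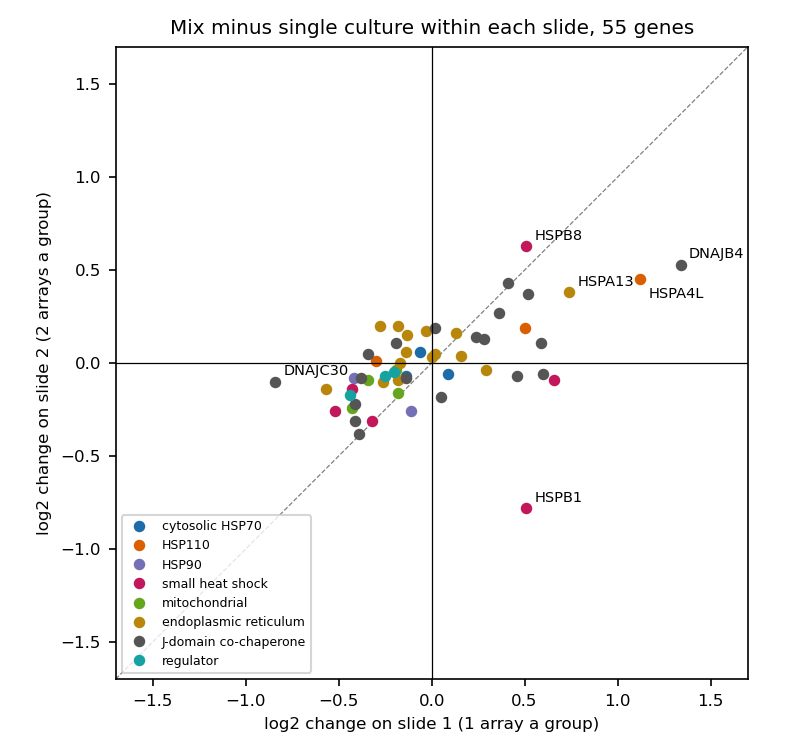
Change in mix minus single culture within slide 1 (1 array a group, x axis) and within slide 2 (2 arrays a group, y axis) for the 55 genes, with the dashed line at equal change. HSPB8 lies near the line (0.51 and 0.63), DNAJB4 (1.34 and 0.53) and HSPA4L (1.12 and 0.45) lie below it, and HSPB1 has opposite signs (0.51 and -0.78).

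Other genes of the same pathways were taken from 3 lists. In a list of co-chaperones and cytosolic folding factors, 38 of 48 symbols were on the array and 37 were tested. None was called by limma, and CRYAB was the only one called, upward, with the slide in the model. Of the 37, 28 lay below 0 and 9 above, with a median of -0.11, where 58.0% of all probes tested lay below 0. The subunits of the cytosolic chaperonin had values such as -0.08 (CCT3), -0.19 (CCT5) and -0.25 (TCP1).

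In a list of the unfolded protein response and folding in the endoplasmic reticulum, 28 of 39 symbols were tested, and again none was called by limma. With the slide in the model WFS1 rose and TRIB3 fell. TRIB3, a pseudokinase induced by ATF4, read -0.30, 0.40 and 0.08 in single culture and -1.49, -0.52 and -0.51 in mix culture. Its change was -0.90 ± 0.32 (SE), with a limma adjusted p of 0.456 without and 0.00812 with the slide. WFS1, a membrane protein of the compartment, read -2.50, -1.76 and -1.78 against -2.07, -0.93 and -0.97. Its change was 0.69 ± 0.36 (SE), with a limma adjusted p of 0.713 without and 0.0134 with the slide. The other WFS1 probe gave 0.27. EIF2AK3 (PERK), a sensor of the response, had 0.54 and did not pass (limma adjusted p with the slide of 0.0542). XBP1 (-0.15), HERPUD1 (0.05), ATF4 (-0.31) and DDIT3 (0.32) did not pass either. The list median was 0.03.

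Because detached and sorted cells pass through handling stress, immediate early genes were measured beside the chaperones. Of 22 symbols 18 were tested, 15 above and 3 below 0, with a median of 0.23. NR4A1 read -1.39, -0.53 and -0.77 in single culture and 0.50, 1.34 and 1.42 in mix culture, a change of 1.98 ± 0.32 (SE), and was called by limma without the slide (adjusted p = 0.0496). ATF3 (0.96) and DUSP1 (1.03) were called with the slide in the model (limma adjusted p of 0.00663 and 0.0102), while FOS (0.40), JUN (0.17) and EGR1 (0.22) were not. Of the kidney epithelial markers, 5 of 16 probes, of CDH1, CLDN4 and TJP1, were called lower in that fit, beside 3.22% of all probes tested. Without the slide, 0 of the 16 were called. Of the fibroblast, leukocyte and endothelial lists, 0 probes were called in either fit. The part of the handling genes and of the epithelial markers in the chaperone values was not tested.

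**Figure D5:**
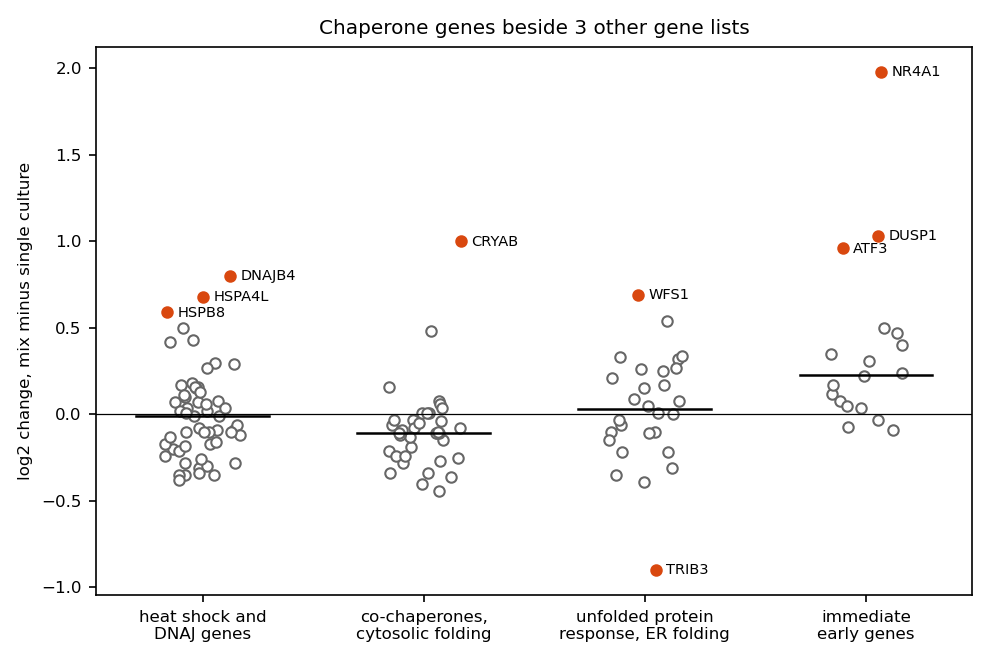
Log2 change in mix minus single culture of each tested gene (brightest probe) for the chaperone genes (n = 55) and 3 other lists (n = 37, 28 and 18), with the median as a bar. Filled points were called in the slide-adjusted fit. The medians are -0.01, -0.11, 0.03 and 0.23, and NR4A1, at 1.98, is the highest point.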

How the data were processed

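RNA of 6 sorted cell samples was read on 1-colour Agilent canine 4x44K arrays. The deposited scanner files hold the intensity of each spot, with background subtracted by the authors in Feature Extraction (11.5.1.1 for slide 1, 12.1.1.1 for slide 2, per the file headers), and positions on CanFam3.1. A deposited table of log2 values, centred by the authors per probe within slide, was an alternative source. Here control and outlier spots (5 to 9 an array) were left out, spots of a probe averaged, and the 75th percentile of the array subtracted from log2 intensity. limma 3.58.1 in R 4.3.3 compared 3 with 3 arrays, two-sided, with Benjamini-Hochberg adjustment, and was tested on simulated data. Nothing says that replicates were separate cultures, so p-values measure the spread between these samples, which may be technical.

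Members, role classes and lists were chosen with earlier results of these data known. A DNAJ gene not placed by hand in a compartment was classed as a J-domain co-chaperone. Named genes were members called, fixed sets of inducible and endoplasmic reticulum chaperones, members called in the slide-adjusted fit (up to 3 each way in a class) and those not detected, and others named here were chosen after their values were seen. Of the 64 gene names 63 are RefSeq symbols or synonyms (HSPA1L is the other). Deviations of same-numbered arrays from their group means correlated at 0.801 (the arrays of slide 1), 0.530 and 0.572. Different numbers on slide 2 correlated higher than same numbers there, at 0.610 and 0.632, so these values do not settle the pairing. The replicate block took the numbers as labelled. On slide 2 the authors' columns for mix culture replicates 2 and 3 matched each other's scanner files (r = 0.979 and 0.977, against 0.465 and 0.433 for their own), which touches only pairing and the naming of arrays left out. Other blocks, filters, normalizations, sources and tests, and each array left out, were tried as alternatives. Protein and promoter sequences were not used here.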

Additional observations from a re-analysis of the deposited data

How the results depend on the processing

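The count of chaperone probes called depended on how the slide was handled. It was 0 by limma without a block, 8 with the slide block, 5 with the replicate block (also 5 with mix culture replicates 2 and 3 exchanged, chosen after seeing the data), 1 after normexp with quantile normalization, 15 from the authors' table, whose centring within slide took up degrees of freedom that limma was not told of, and 4 on slide 2 alone. It was 0 with every other setting tried, and 0 to 0 when any array was left out. Over all probes the count was 235, and 1917 with the slide block, 1399 with the replicate block (1446 with the pairing exchanged), 143 with probes above background on all 6 arrays, 132 after normexp, 4077 from the authors' table, 8 by the methods' t-test, 983 on slide 2 alone and 86 to 242 when an array was left out, the lowest counts being 94 without single culture replicate 3, 92 without mix culture replicate 2 and 86 without mix culture replicate 3.

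Over 16 alternative settings the change of HSPB8 ran from 0.53 to 0.69, of DNAJB4 from 0.44 to 0.97, of HSPA4L from 0.44 to 0.84 and of HSPA13 from 0.38 to 0.63, and none changed sign. Their adjusted p ran from 0.00473 to 0.832, 0.0219 to 0.879, 0.0234 to 0.862 and 0.0542 to 0.940. DNAJB4 was 0.44 after normexp and 0.51 without mix culture replicate 1, and HSPA4L 0.44 without that array. The median over the chaperone genes was -0.01 and ran from -0.14 to 0.06 over the alternatives, and the SD of the array medians between replicates was 0.13. The 47 probes that differed between slides were 46 with quantile normalization, chosen after seeing the data. The limits are 3 arrays a group, a single array a group on slide 1, and the dim signals of DNAJB4 and HSPA4L, whose changes were smaller after normexp with an offset of 50.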
